A study of Oryza sativa with 6 samples.

Results

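The MSP1 pathway sets which cells of a young rice anther become sporogenous and which become wall layers. A set of 6 early anther cell fate genes, among them MSP1, was examined here in anthers of wild-type and dmd1 mutant rice. The genes are the peptide ligand gene TDL1A, the receptor kinase gene MSP1, the co-receptor kinase genes SERK1 and SERK2, the transcriptional regulator gene SPL and the glutaredoxin gene MIL1. They were taken by annotation identifier, and all 6 were found among the 94013 rows of the expression table. RNA was sequenced from 3 wild-type libraries and 3 libraries of the dmd1 mutant (Oryza sativa), each from anthers of plants 3 months old at stages between tetrads and early microspores. The labels give neither the lesion behind dmd1 nor the cultivar, and nothing says whether anthers of several plants were pooled. The design text calls the libraries of a genotype biological replicates. Expression of DMD1 was not analysed here.

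In rice, TDL1A is a small secreted protein that binds the extracellular leucine-rich repeats of MSP1, a receptor-like kinase on the cell surface. Loss of MSP1 or TDL1A gives anthers with too many sporogenous cells and without a normal tapetum, the inner wall layer that feeds the microspores. SERK proteins are short leucine-rich repeat kinases that act as co-receptors for larger receptor kinases, and in Arabidopsis they pair with EMS1, the counterpart of MSP1. SPL is the rice counterpart of SPOROCYTELESS/NOZZLE, which promotes sporogenous cell fate in Arabidopsis, and MIL1 is a glutaredoxin needed for the start of meiosis in rice anthers. All of these steps precede meiosis, whereas the anthers sampled here had passed it.

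Levels are given in FPKM, which scales fragments by transcript length and by the mapped total of the library, as deposited. FPKM totals ran from 808227 to 1287424 per library, and no fragment counts were available, so counting intervals cannot be given. The first principal component of the tested rows held 53.9% of the variance and separated the genotypes. The second held 26.7% and placed wild-type library 2 and dmd1 library 1 on the positive side, wild-type libraries 1 and 3 and dmd1 library 3 on the negative side, and dmd1 library 2 near 0. The labels give no batch that matches this split. Of 3 marker lists, the summed level of 7 tapetum pollen-wall and lipid genes ran from 39624 to 41336 FPKM in wild type and from 3024 to 8939 in dmd1. The sum of 9 meiocyte genes ran from 53.3 to 77.5 and from 72.7 to 83.6 FPKM, and that of 5 photosynthesis genes from 250.1 to 391.0 and from 151.0 to 192.6 FPKM. No marker was at 0 in every library. Such sums weigh the most abundant rows most, and the genes of a list did not all move alike. Genotypes did not overlap, in either direction, for 7 of 7 tested tapetum genes, 4 of 8 meiocyte genes and 2 of 5 photosynthesis genes. The share over all tested rows was 38.4%. In bulk anthers, fewer cells of a type and less RNA per cell cannot be told apart.

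None of the 5 tested early cell fate genes passed the test between dmd1 and wild type, and MIL1 was too low to be tested. MSP1, SERK1, SERK2 and SPL were detected between 25.5 and 47.8 FPKM in both genotypes, with fitted differences below 0.25 log2 units, while TDL1A was low and averaged less in dmd1 without passing. MIL1 was at or near 0 throughout. A row was tested if it reached 1 FPKM in at least 3 libraries, which 5 of the 6 genes did, and it was called at a Benjamini-Hochberg adjusted p under 0.05 in limma with a change of at least 1 on the log2(FPKM + 1) scale. By this rule 0 of 5 tested genes were called, against 6.71% of all 25474 tested rows (3.16% called higher and 3.54% called lower in dmd1). With so few genes, a count of 0 says little beside that share. At an adjusted p under 0.05 alone the count was also 0, against 13.0% of all rows, and at an unadjusted p under 0.05 it was 1, TDL1A, against 31.3% of all rows.

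**Figure D1:**
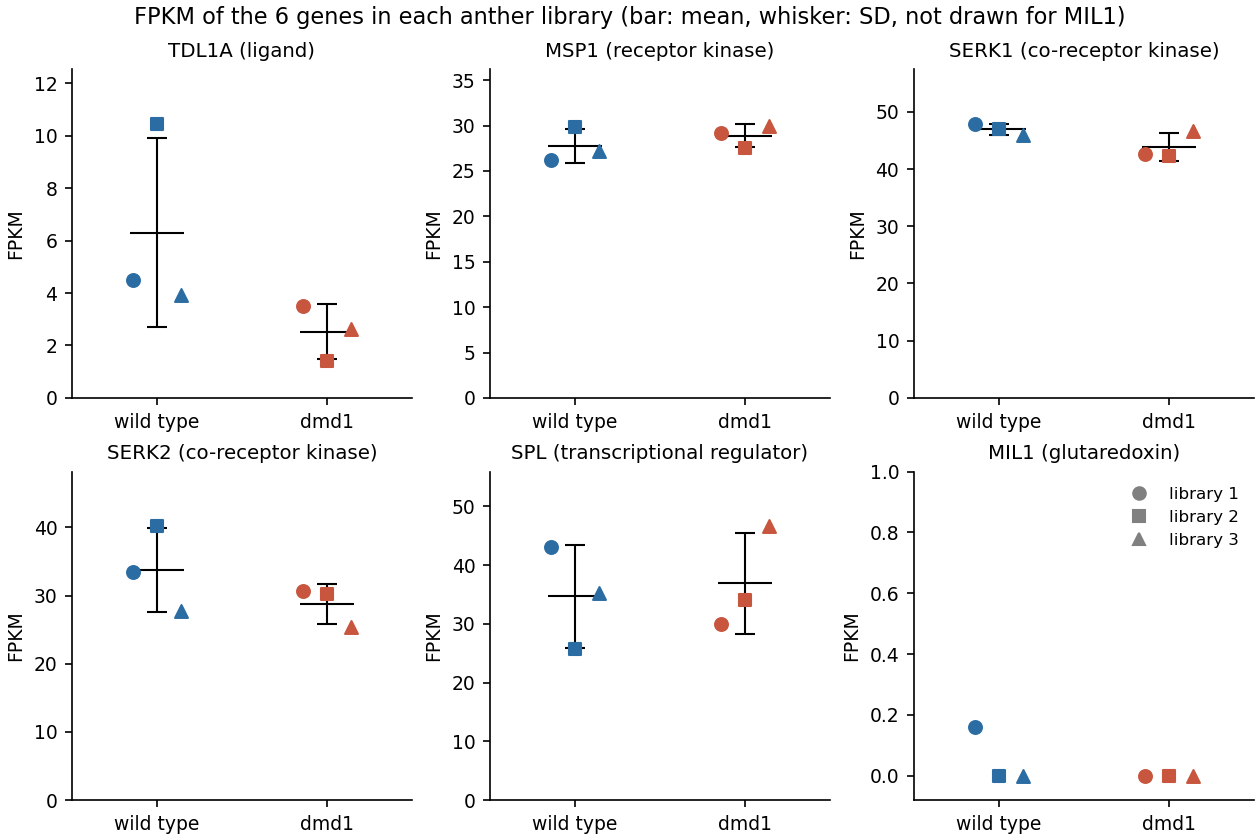
FPKM (vertical axes, linear) of the 6 genes in the 3 wild-type and 3 dmd1 libraries; each symbol is a library, bars are means and whiskers SD, not drawn for MIL1. TDL1A is the only gene whose genotypes do not overlap, with wild-type library 2 at 10.4 FPKM well above the others, and MIL1 lies at 0 in 5 of 6 libraries.

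The ligand gene TDL1A (OS12G0472500) measured 4.52, 10.4 and 3.92 FPKM in wild-type libraries 1, 2 and 3, against 3.52, 1.43 and 2.61 FPKM in the same order for dmd1. All 3 dmd1 values lay below all 3 wild-type values, and wild-type library 2 was well above the other wild-type libraries. The means were 6.30 ± 3.61 and 2.52 ± 1.05 FPKM (SD, n = 3). The log2 change was -0.99 ± 0.39 (SE), with a 95% interval, before any adjustment, from -1.92 to -0.06, and limma gave an adjusted p = 0.139. Genotypes without overlap were also found for 38.4% of all tested rows, so this feature is common in these libraries. Without wild-type library 2 the log2 change was -0.61 (limma adjusted p = 0.217). Without wild-type library 2 and dmd1 library 1 together it was -0.82 (limma adjusted p = 0.121). TDL1A was called in 1 of 17 alternative fits, the one with library weights (log2 change -1.12, limma adjusted p = 0.0103). That fit gave dmd1 library 2, the library with the least TDL1A, a weight of 9.13 against 0.471 and 0.438 for the other dmd1 libraries.

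The summed tapetum and photosynthesis markers above were, like TDL1A, lower in every dmd1 library than in every wild-type library, and their part in its difference was not tested. Within genotypes TDL1A was highest in wild-type library 2 and in dmd1 library 1, but it did not follow the second component within dmd1, where library 2, near 0 on it, had the lowest value. On the positive side of the split, the log2 difference of dmd1 library 1 from wild-type library 2 was -1.34, and on the negative side dmd1 library 3 stood at -0.53 relative to the mean of wild-type libraries 1 and 3. With 1 or 2 libraries per genotype on each side, these values cannot be tested.

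The receptor gene MSP1 (OS01G0917500) measured 26.2, 29.8 and 27.2 FPKM in wild type, against 29.2, 27.5 and 30.0 in dmd1. The genotypes overlapped, and all 6 libraries lay within a 1.15-fold range. The means were 27.7 ± 1.88 and 28.9 ± 1.28 FPKM (SD, n = 3). The log2 change was 0.06 ± 0.11 (SE, limma adjusted p = 0.758), and its 95% interval from -0.21 to 0.32 corresponds to a fold between 0.866 and 1.25. This interval leaves out a 2-fold difference in either direction. The median over all tested rows was 0.12, which lies within the MSP1 interval. The sign of the MSP1 change turned with median-of-ratios scaling (log2 change -0.07), which brought the median of all rows to 0.01.

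The co-receptor gene SERK1 (OS08G0174700), also known in rice as BAK1, measured 47.8, 47.0 and 45.9 FPKM in wild type, against 42.6, 42.4 and 46.6 in dmd1. The genotypes overlapped through dmd1 library 3. The log2 change was -0.10 ± 0.11 (SE, limma adjusted p = 0.587), with a 95% interval from -0.36 to 0.16, and its sign turned with equal library totals (0.10). SERK2 (OS04G0457800), the paralogous co-receptor gene, measured 33.4, 40.2 and 27.8 FPKM in wild type, against 30.6, 30.2 and 25.5 in dmd1. Its genotypes overlapped as well, with the highest value in wild-type library 2 and the lowest in dmd1 library 3. The SERK2 log2 change was -0.21 ± 0.17 (SE, limma adjusted p = 0.427), with a 95% interval from -0.61 to 0.18. It shrank to -0.02 with equal library totals and to -0.08 without wild-type library 2.

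SPL (OS01G0212500) measured 43.2, 25.7 and 35.2 FPKM in wild type, against 30.1, 34.0 and 46.6 in dmd1. Both genotypes spanned nearly the same range. The means were 34.7 ± 8.76 and 36.9 ± 8.64 FPKM (SD, n = 3). The log2 change was 0.09 ± 0.24 (SE, limma adjusted p = 0.823), with a 95% interval from -0.49 to 0.67. Its sign turned when wild-type library 2 (-0.10) or dmd1 library 3 (-0.08) was left out, and with median-of-ratios scaling (-0.03) or library weights (-0.13).

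MIL1 (OS07G0151100) was listed at 0.162 FPKM in wild-type library 1 and at 0 in the other 5 libraries. It was not tested, and no fold is given against a group at 0. Such low rows were not rare, as 7299 of 37830 rows with identifiers that begin with OS (19.3%) never exceeded the highest MIL1 value, and 4115 of them were at 0 in all libraries.

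**Figure D2:**
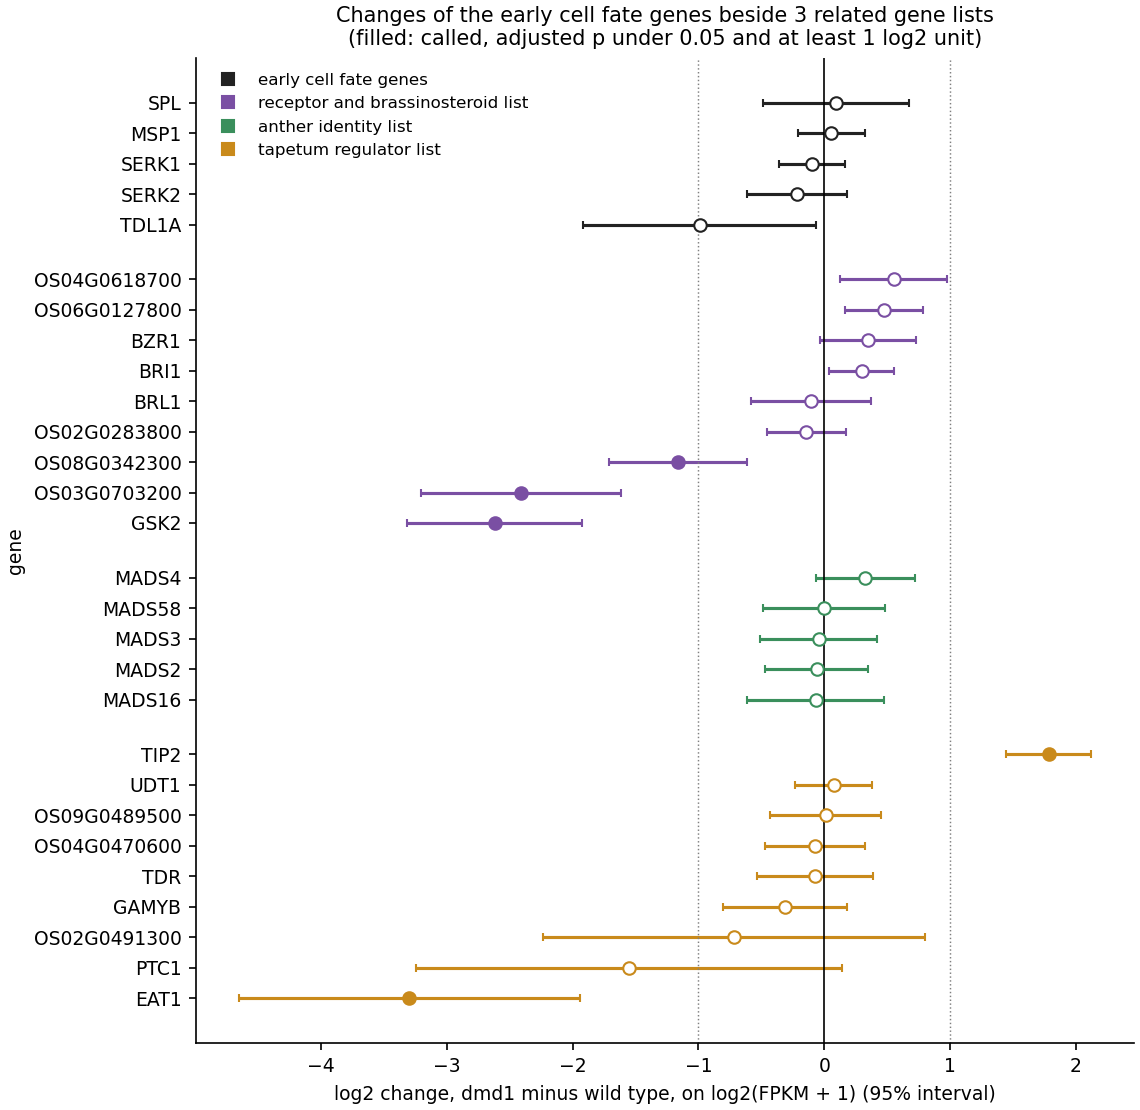
Log2 change of dmd1 minus wild type on log2(FPKM + 1) (horizontal axis) with its unadjusted 95% interval. Shown are the 5 tested early cell fate genes and the tested rows of 3 related lists. Filled points were called. Rows of the 3 lists whose symbol has no match on the same chromosome in the reference table carry their identifier. The intervals of MSP1, SERK1, SERK2 and SPL cross 0 and stay between -1 and 1, while those of GSK2, OS03G0703200, TIP2 and EAT1 lie outside.

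The levels of the 6 genes were spread mainly by the low TDL1A and MIL1, while SERK1, SPL, SERK2 and MSP1 lay nearer each other. Since FPKM is scaled by transcript length, levels can be set side by side. Over the 6 libraries SERK1 averaged 45.4 ± 2.34 FPKM (SD, n = 6), SPL 35.8 ± 7.88, SERK2 31.3 ± 5.12, MSP1 28.3 ± 1.57 and TDL1A 4.41 ± 3.15 FPKM. SERK1 was above SERK2 and above MSP1 in 6 of 6 libraries. The ranges of SERK1 and SPL overlapped (SERK1 was higher in 5 of 6 libraries), as did those of SPL and SERK2 (SPL higher in 4 of 6) and of SERK2 and MSP1 (SERK2 higher in 5 of 6). The order of these neighbours thus did not hold in every library, and their differences were not tested. The gap between MSP1 and TDL1A was clear, because the lowest MSP1 value was 26.2 and the highest TDL1A value 10.4 FPKM. Among tested rows, MSP1 lay above 77.1% to 81.5% of rows in each library, SERK1 above 84.3% to 88.8%, and TDL1A above 7.75% to 53.5%.

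SERK1 and MSP1 were among the steadier rows between replicate libraries. The SD of log2(FPKM + 1) within genotypes was 0.06 for SERK1 and 0.08 for MSP1, and 1.5% and 4.48% of all tested rows had a smaller one. Among rows with a mean within 1.5-fold of theirs, 2.16% (of 2960) and 7.43% (of 4226) had a smaller SD. SERK2 was typical of its level, with an SD of 0.21 against a median of 0.20. SPL (0.34) and TDL1A (0.57) varied more than most, above 75.8% and 87.5% of rows of like level.

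**Figure D3:**
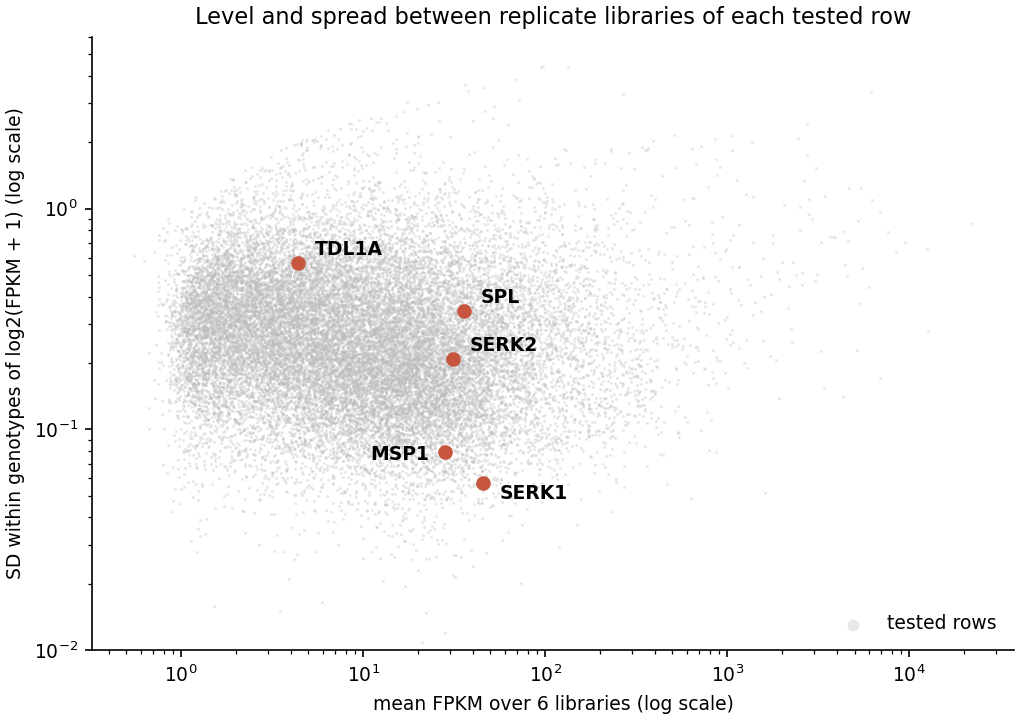
Mean FPKM over the 6 libraries (horizontal, log scale) against the SD of log2(FPKM + 1) within genotypes (vertical, log scale) for the 25474 tested rows in grey, with the 5 tested early cell fate genes in red. SERK1 and MSP1 lie in the lower part of the cloud (SD 0.06 and 0.08) and TDL1A in its upper part (0.57).

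SPL and TDL1A stood at opposite ends of their genotype in wild-type library 2 and dmd1 library 1. SPL was lowest of its genotype in wild-type library 2 (25.7 FPKM) and in dmd1 library 1 (30.1 FPKM). TDL1A and SERK2 were highest of their genotype in the same libraries. In dmd1 libraries 2 and 3 SPL and TDL1A were not opposite, as both lay below their genotype mean in library 2 and above it in library 3. Of all tested rows, 34.2% were highest in both of these libraries and 13.7% were lowest in both, so neither pattern was rare. In the anther identity list described below, 3 of 5 tested genes shared the SPL pattern (MADS58, MADS16 and MADS2) and none the other. MSP1 and SERK1 followed neither pattern.

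**Figure D4:**
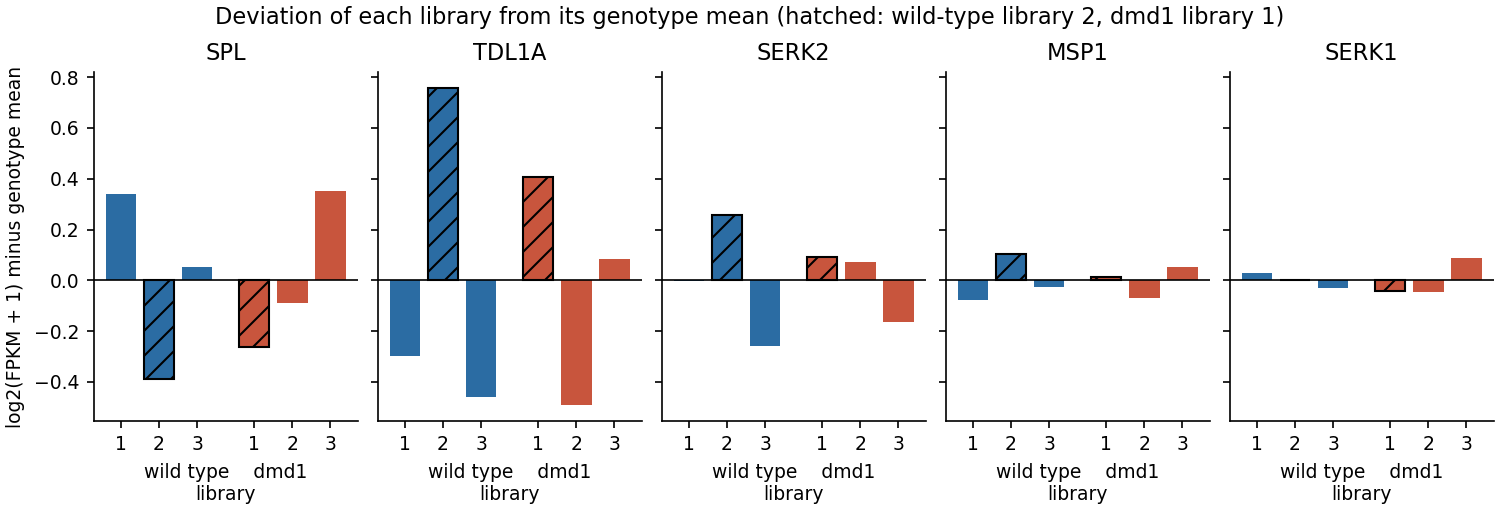
Deviation of log2(FPKM + 1) from the genotype mean (vertical axis) in each library for the 5 tested genes; wild-type library 2 and dmd1 library 1 are hatched. The hatched bars are the lowest for SPL and the highest for TDL1A and SERK2 in each genotype, and bars of SERK1 stay within 0.09 of 0.

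The balance of ligand to receptor transcripts was compared within each library. The ratio of TDL1A to MSP1 FPKM was 0.172, 0.350 and 0.144 in wild type and 0.121, 0.0519 and 0.0871 in dmd1, so the genotypes did not overlap. The log2 ratio differed by -1.33, from -2.28 ± 0.68 to -3.61 ± 0.61 (SD, n = 3), with an exact two-sided permutation p = 0.1, the smallest that 3 against 3 libraries allow. Without wild-type library 2 the difference was -0.95. Since MSP1 hardly varied, this ratio carries the TDL1A values over and adds nothing independent of them. It was taken on FPKM without the added 1 of the fitted log2 changes. With 1 added to both FPKM values its log2 difference was -1.05. The ratio of SERK1 to SERK2 was 1.43, 1.17 and 1.65 in wild type and 1.39, 1.40 and 1.83 in dmd1, and the genotypes overlapped (log2 difference 0.12, exact two-sided permutation p = 0.6). Fragments that both paralogues could have given are divided between them by the estimation in RSEM, which could shift this ratio.

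**Figure D5:**
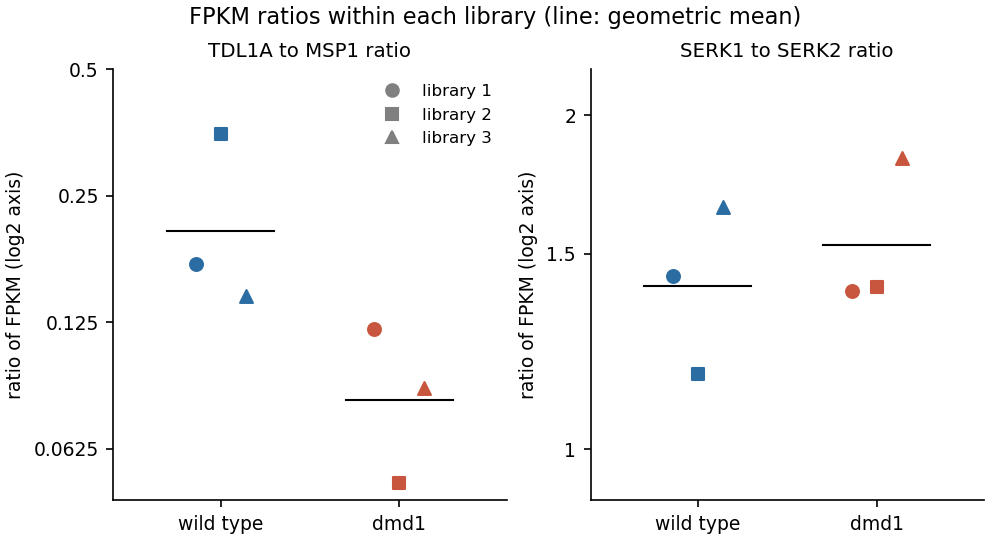
Ratio of TDL1A to MSP1 FPKM and of SERK1 to SERK2 FPKM within each library (log2 axes); symbols are libraries and lines geometric means. The TDL1A to MSP1 ratio runs from 0.144 to 0.350 in wild type and from 0.0519 to 0.121 in dmd1, and the SERK1 to SERK2 ratios overlap.

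Other genes around the same receptors were described from lists made of general knowledge. Earlier results of these data were known when the lists were made, so their counts are descriptive only. SERK proteins also serve BRI1, the brassinosteroid receptor, and a list of 9 receptor kinases and brassinosteroid signalling genes was measured, all 9 of them tested. Of these, 3 fell, none rose and 6 were not called, against 3.54% of all rows called lower. The list median was -0.10 against 0.12 over all tested rows. GSK2 (OS05G0207500), a kinase that restrains brassinosteroid signalling in rice, measured 43.9, 76.1 and 42.1 FPKM in wild type, against 10.3, 7.35 and 5.77 in dmd1. Every dmd1 library was far below every wild-type library, and the log2 change was -2.62 ± 0.29 (limma SE, adjusted p = 0.00592), and GSK2 was called in all 17 alternative fits.

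OS03G0703200 fell from 177.8 ± 69.0 to 32.0 ± 10.2 FPKM (SD, n = 3; log2 change -2.41 ± 0.33 SE, limma adjusted p = 0.0103), and OS08G0342300 from 6.30 ± 0.34 to 2.35 ± 0.90 FPKM (log2 change -1.16 ± 0.23 SE, limma adjusted p = 0.0257). OS03G0703200 missed the threshold without dmd1 library 2 (adjusted p = 0.0509). OS08G0342300 missed it when wild-type library 1 (0.0931), 2 (0.0559) or 3 (0.078), or dmd1 library 2 (0.0855), was left out, and did not reach the fold minimum without dmd1 library 3 (log2 change -0.94). BRI1 (OS01G0718300), chosen after its values were seen, measured 28.6, 25.0 and 26.5 FPKM in wild type, against 33.4, 33.3 and 32.5 in dmd1. Its genotypes did not overlap, but it did not pass (log2 change 0.30 ± 0.11 SE, limma adjusted p = 0.116). The summed tapetum and photosynthesis markers were also lower in every dmd1 library than in every wild-type library, and their part in the fall of GSK2 was not tested.

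The anther identity list held 8 genes, among them the floral MADS-box genes of classes B and C, which specify stamens, and TDL1B, the closest relative of TDL1A. None of its 5 tested genes was called, a count that says little where 6.71% of all rows were called, and all 5 log2 changes lay between -0.07 and 0.33. MADS4 (OS05G0423400), a class B gene, averaged 76.4 ± 13.4 and 95.1 ± 4.82 FPKM (SD, n = 3; log2 change 0.33 ± 0.16 SE, limma adjusted p = 0.228). MADS2, another class B gene, and MADS16, their class B partner, had log2 changes of -0.06 and -0.07, and both signs turned with equal library totals (0.14 and 0.14). TDL1B (OS10G0207500), chosen after its values were seen, was listed at 0 in all 6 libraries.

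Among 9 tested regulators of the tapetum, the layer that fails without MSP1 signalling, 1 rose, 1 fell and 7 were not called, against 3.16% of all rows called higher and 3.54% called lower. The list median was -0.07. TIP2 (OS01G0293100), a bHLH factor of early tapetal differentiation, measured 69.7, 84.0 and 65.0 FPKM in wild type, against 260.6, 251.6 and 245.0 in dmd1 (log2 change 1.79 ± 0.14 SE, limma adjusted p = 0.00326). The later-acting bHLH factor EAT1 (OS04G0599300) measured 541.4, 535.6 and 427.9 FPKM in wild type, against 106.4, 57.8 and 19.7 in dmd1 (log2 change -3.30 ± 0.56 SE, limma adjusted p = 0.0178). Its call was lost when wild-type library 1 (adjusted p = 0.0724), wild-type 3 (0.0568) or dmd1 library 2 (0.0651) was left out. PTC1 (OS09G0449000), which promotes breakdown of the tapetum, did not pass (log2 change -1.55 ± 0.70 SE, limma adjusted p = 0.19), and leaving out single libraries gave log2 changes from -2.03 to -0.76.

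Likeness of pattern was measured as the root mean square difference of log2(FPKM + 1) over the 6 libraries, each row centred on its own mean, among 43 tested rows of the lists. SPL was most like the class C floral gene MADS58 (0.12) and the class B gene MADS2 (0.16). SERK2 was most like the tapetal bHLH gene TDR (0.09) and the Argonaute gene MEL1 (0.11). SPL, MADS58 and MADS2 were all lowest of their genotype in wild-type library 2 and dmd1 library 1, as were 13.7% of all tested rows. SERK2 and TDR were highest in both, as were 34.2% of all tested rows. Distances to rows outside the lists were not measured. MSP1 was most like PAIR3 (0.09) and PAIR2 (0.11), both genes of meiotic chromosome pairing, and SERK1 like OS02G0283800 (0.09) and MADS2 (0.14). The rows nearest to TDL1A among these 43 were OS08G0342300 (0.48) and MEL1 (0.50). The measure is not scaled for spread, so a row as variable as TDL1A (SD within genotypes 0.57) tends to lie far from others. For nearly flat rows such as MSP1 and SERK1 a small difference shows only that the other row also moved little on this scale. The scale compresses low rows such as PAIR3, which ran from 0.735 to 1.29 FPKM.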

How the data were processed

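The authors deposited FPKM values in a single table of libraries and genes. Reads went through fastp, HISAT and RSEM against build IRGSP-1.0, per the submitters' processing notes. Annotation, tool versions and strand setting are not given in the sources used, so overlapping antisense transcripts cannot be told apart. Column names matched the library titles, and no pair of libraries held identical values. Low values gave only an approximate relative depth of 0.847 to 1.28 against wild-type library 1, with 4.56% to 13.8% of low rows within 0.02 log2 units of the step.

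Rows with at least 1 FPKM in at least 3 libraries were transformed to log2(FPKM + 1), which understates changes of low rows, and fitted with limma 3.58.1 in R 4.3.3 (eBayes, trend and robust options). The Benjamini-Hochberg adjustment covered all 25474 rows. The fit was tested on simulated data. The library numbers were not taken to pair samples. Alternatives were another pseudocount, other filters, scalings, spread models, library weights, a replicate block and left-out libraries.

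The 6 genes and the lists were chosen with earlier results of these data known. Named genes are the 6, up to 3 rows with the smallest p from each of the 3 gene lists, and the 2 most alike rows per gene. BRI1 and TDL1B fall outside this rule and were chosen after their values were seen. Symbols are from general knowledge. The RefSeq table (ASM3414082v1) does not list the identifiers. It holds 3 of the 6 symbols on the chromosome that the identifier names, and its SPL is another gene, a lyase. Rows of other lists without such a match are given by identifier.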

Additional observations from a re-analysis of the deposited data

How the results depend on the processing

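None of the 5 tested early cell fate genes was called in 16 of 17 alternative fits, and 1 (TDL1A, log2 change -1.12) was called with library weights, whose estimation stopped before full convergence. Leaving out a library moved the log2 changes of TDL1A from -1.22 to -0.61, SPL from -0.10 to 0.26, SERK2 from -0.34 to -0.08, SERK1 from -0.14 to -0.07 and MSP1 from 0.02 to 0.11. Signs turned for MSP1 (-0.0674) and SPL (-0.0323) with median-of-ratios scaling, for SPL (-0.13) with library weights and for SERK1 (0.10) with equal totals. Equal totals also turned MADS16 (0.14), MADS2 (0.14), MADS58 (0.19), TDR (0.13) and OS02G0283800 (0.0394), quantile normalization turned MADS16 (0.28) and TDR (0.38), median-of-ratios turned PAIR2 (-0.10), and library weights turned TDR (0.00286). The cause was not tested. Without 1 library these ran from -0.22 to 0.15 (MADS16), -0.20 to 0.0338 (MADS2), -0.18 to 0.10 (MADS58), -0.0511 to 0.16 (PAIR2) and -0.21 to 0.0351 (TDR), and the log2 difference in the SERK1 to SERK2 ratio from -0.0101 to 0.24. Across fits without 1 library, called members ran from 1 to 3 in the receptor and brassinosteroid list. In the tapetum regulator list they ran from 1 to 2, and library weights gave 3. The 1 in each list was reached without dmd1 library 2 and, in the tapetum regulator list, also without wild-type library 1 or 3. Over all tested rows 1709 were called, 2672 with library weights and 671 to 1605 without 1 library. Rises were 806 of 1709 calls, 1491 of 2369 with equal totals and 664 of 1872 with median-of-ratios scaling. With the replicate block 1395 rows were called and none of the 5 genes. Deviations from the genotype mean correlated at -0.35, -0.01 and 0.35 across rows for same-numbered libraries 1, 2 and 3. Those of wild-type library 2 and dmd1 library 1 correlated at 0.49. With 3 libraries per genotype, these values cannot decide whether same-numbered libraries belong together. Depth in fragments is unknown, which limits MIL1 and TDL1A most.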
